A study of Homo sapiens with 11 samples.

Results

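The mRNA levels of 10 integrin subunit genes were followed in 2 human cancer cell lines with and without a mimic of miR-365a-3p. The genes were ITGA2, ITGA3, ITGA5, ITGA6 and ITGAV, which encode alpha subunits, and ITGB1, ITGB3, ITGB4, ITGB5 and ITGB8, which encode beta subunits. They were taken by symbol as 10 of the 31325 rows of the expression table, and each symbol had 1 row. Cells of the MDA-MB-231 line, a breast cancer line with mesenchymal traits, and of the SKOV3 line, an ovarian cancer line with amplified ERBB2, were transfected with the mimic of miR-365a-3p or with a control. All arrays thus came from transfected cells, and none from untransfected ones. The groups were MDA-MB-231 miR-365a-3p with 3 arrays, MDA-MB-231 control with 3, SKOV3 miR-365a-3p with 3 and SKOV3 control with 2, which gives 11 arrays. Sample labels put harvest at 48 h, whereas the series text speaks of 24 h. The methods name the ovarian line SKOV3.ip1. Whether the numbered arrays of a group came from separate cultures is not given in the sources used here, so p-values measure the spread between arrays, which may be technical.

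Integrins are receptors made of 1 alpha and 1 beta subunit that span the cell membrane, bind proteins of the extracellular matrix outside the cell and connect to the actin cytoskeleton inside it. Beta1 pairs with many alpha subunits to form receptors for collagen (alpha2), laminin (alpha3, alpha6) and fibronectin (alpha5). Beta4 pairs with alpha6 in the hemidesmosomes that tie epithelial cells to laminin, and alphaV pairs with beta3, beta5 or beta8 to bind vitronectin or the latent form of TGF-beta. Breast and ovarian cancer cells use these receptors to spread on matrix and to migrate. A microRNA lowers the stability or translation of mRNAs mainly through its seed, the bases near its 5′ end, which pair with sites that lie mostly in 3′ untranslated regions.

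The mimic is the sequence that links all the comparisons. RefSeq (GRCh38.p14) holds the mature miRNA at chr16:14309340-14309361 on the plus strand, and an identical mature miR-365b-3p at chr17:31575478-31575499 on the plus strand. Both are printed 5′ to 3′ with the seed, bases 2 to 8, in capitals.
hsa-miR-365a-3p: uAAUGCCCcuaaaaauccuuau
hsa-miR-365b-3p: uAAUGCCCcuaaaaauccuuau
Of the 2545 mature miRNAs in the RefSeq table, these 2 were the only ones with this seed. A perfect DNA match to the seed reads GGGCATT. Transcript sequences were not used here, so which integrin mRNAs hold such a match was not examined.

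Values were read as log2 with a floor, so that 1 unit is taken as a factor of 2 in signal. Whether log2 or a variance-stabilizing transformation was used is not given, so the fold values below hold only if the scale is log2. The lowest 60% of the normalized values of an array lay at or under 7.43, and a group mean in that band is called at the floor below. Probes of different genes respond differently, so levels were compared between groups within a gene and not between genes. The changes are limma estimates from all 11 arrays, with Benjamini-Hochberg adjustment of p-values across the 31325 rows, and were called at an adjusted p under 0.05. On this measure, ERBB2 stood at 10.86 in SKOV3 control and 7.61 in MDA-MB-231 control arrays, and EPCAM at 10.36 and 7.63, while the mesenchymal marker VIM was high in both lines at 13.70 and 13.79. PAX8 reached 8.18 in SKOV3 control arrays, but WT1, another marker of the ovarian lineage, was at the floor in all 4 groups. Of the leukocyte and endothelial markers reported here, PTPRC, VWF and CDH5 did not exceed 7.31 on any array, the highest values of CD3E and PECAM1 were 7.44 and 7.49, and CD68 had group means of 9.27 to 10.01.

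In MDA-MB-231 cells, 7 of the 10 integrin mRNAs fell with miR-365a-3p, none rose, and 3 were not called. Those that fell were ITGA2, ITGA3, ITGA5, ITGA6, ITGAV, ITGB4 and ITGB5, by 0.29 to 2.64 on the log2 scale. For comparison, 11.7% of all rows were called lower, 14.4% higher and 26.1% in either direction in this line, and of the 6853 rows with a mean above 8 the share called lower was 26.2%. The median change of the 10 genes was -1.15, beside 0.0064 over all rows. In SKOV3 cells, 2 of the 10 fell, ITGA5 and ITGB4, and 8 were not called, where 7.11% of all rows and 15.3% of those with a mean above 8 were called lower and 7.25% of all rows higher. The median change in SKOV3 was -0.30, beside 0.0066 over all rows. ITGA5 and ITGB4 were therefore the members called lower in both lines, as were 5.39% of all rows. The arrays held RNA from whole cultures, in which fewer cells with a transcript and less transcript per cell cannot be told apart.

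**Figure D1:**
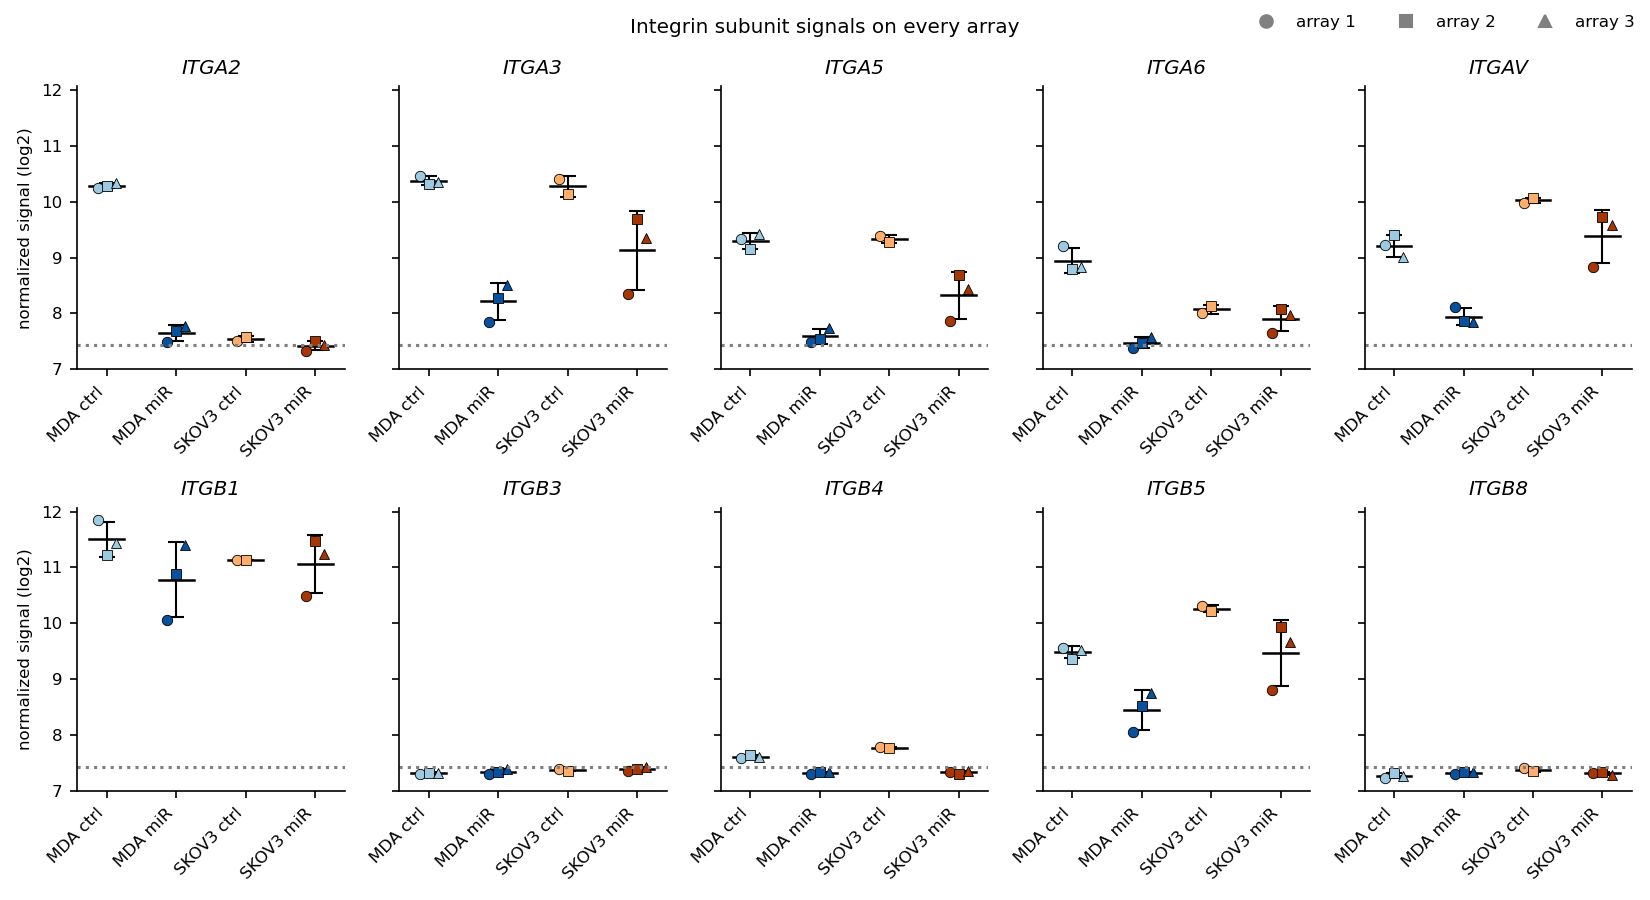
Normalized signal (log2, vertical axis) of the 10 integrin genes on each of the 11 arrays, by group; symbols give the array number, horizontal bars the group mean, whiskers 1 SD and the dotted line the floor band at 7.43. ITGA2 stood near 10.3 in MDA-MB-231 control arrays and under 7.8 in all other arrays, and ITGB3 and ITGB8 stayed at the floor in every group.

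ITGA2 encodes the alpha2 subunit, which with beta1 forms a receptor for collagen. It gave 10.25, 10.28 and 10.33 in the MDA-MB-231 control arrays and 7.48, 7.68 and 7.77 with miR-365a-3p. In SKOV3 it gave 7.51 and 7.58 in control arrays and 7.33, 7.50 and 7.44 with the mimic. MDA-MB-231 control arrays thus stood far above all others, and the remaining 3 groups lay close to the floor. ITGA2 was the member with the largest difference between the control arrays of the lines, 2.74 ± 0.080 higher (log2, SE, adjusted p = 1.84e-07) in MDA-MB-231 control than in SKOV3 control arrays, or 6.69-fold. It also had the largest change among the 10 in MDA-MB-231, -2.64 ± 0.072 (adjusted p = 7.41e-07), or 6.24-fold lower. The change in SKOV3 was -0.12 ± 0.080 (adjusted p = 0.459), from a level of 7.55 that left little room to fall above the floor. Neighbouring groups in the order MDA-MB-231 miR-365a-3p, SKOV3 control and SKOV3 miR-365a-3p did not differ beyond their spread (adjusted p = 0.469 and 0.459). In the deposited values without further normalization, the SKOV3 change was -0.26 and was called (adjusted p = 0.0422).

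ITGA3 and ITGA6 encode alpha subunits of laminin receptors. ITGA3 gave 10.47, 10.31 and 10.36 in MDA-MB-231 control arrays, and 7.85, 8.28 and 8.50 after miR-365a-3p. Its SKOV3 control arrays gave 10.41 and 10.14, and those with the mimic 8.34, 9.68 and 9.36. Every miR-365a-3p array was thus below every control array in both lines, with a wide spread among the treated SKOV3 arrays. The change was -2.16 ± 0.31 (adjusted p = 0.00111) in MDA-MB-231 and -1.15 ± 0.35 (adjusted p = 0.0629) in SKOV3, which was not called. Without SKOV3 miR-365a-3p array 2 the SKOV3 change was -1.43 and was called (adjusted p = 0.0219). Over leaving out each array in turn the SKOV3 change ranged from -1.43 to -0.75, and it was called in no other of these fits. The control arrays of the lines differed by 0.10 ± 0.35 (adjusted p = 0.937). After the mimic the difference of MDA-MB-231 from SKOV3 was -0.91 for ITGA3 (adjusted p = 0.0864), and none of the neighbouring groups in the order of levels differed beyond their spread.

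ITGA6 gave 9.20, 8.80 and 8.83 in MDA-MB-231 control arrays and 7.38, 7.47 and 7.57 with the mimic. In SKOV3 the values were 8.02 and 8.12 for control and 7.65, 8.08 and 7.97 for miR-365a-3p arrays. The MDA-MB-231 groups were well apart, and the SKOV3 groups overlapped. ITGA6 mRNA was 0.87 ± 0.15 higher in MDA-MB-231 than in SKOV3 control arrays (adjusted p = 0.00373), fell by 1.47 ± 0.13 in MDA-MB-231 (adjusted p = 0.000109), and changed by -0.17 ± 0.15 in SKOV3 (adjusted p = 0.630). With miR-365a-3p its level in MDA-MB-231, 7.48 ± 0.098 (SD, n = 3), was close to the floor, and the neighbouring SKOV3 miR-365a-3p group was not told apart from it (-0.43, adjusted p = 0.0626).

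ITGB4 encodes the beta4 subunit, the partner of alpha6 in hemidesmosomes. Its control arrays gave 7.58, 7.63 and 7.61 in MDA-MB-231 and 7.78 and 7.76 in SKOV3. With the mimic the values were 7.29, 7.33 and 7.33 in MDA-MB-231 and 7.33, 7.30 and 7.36 in SKOV3. All 6 treated arrays lay within the floor band and all 5 control arrays above it, and the spread within groups was among the smallest of the members. The fall was small on this scale, -0.29 ± 0.023 in MDA-MB-231 (adjusted p = 5.87e-05) and -0.44 ± 0.026 in SKOV3 (adjusted p = 2.61e-05), and since it ended at the floor the values give no size for the true fall. At baseline ITGB4 was lower in MDA-MB-231 than in SKOV3 control arrays, with a difference of -0.16 ± 0.026 (adjusted p = 0.00237). After the mimic the difference was -0.014 (adjusted p = 0.794).

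ITGA5 encodes the alpha5 subunit, which with beta1 forms the main fibronectin receptor. Control arrays gave 9.34, 9.15 and 9.42 in MDA-MB-231 and 9.39 and 9.28 in SKOV3, so that the lines started from the same range. With miR-365a-3p the values were 7.48, 7.55 and 7.74 in MDA-MB-231 and 7.86, 8.69 and 8.43 in SKOV3. The treated arrays lay below all control arrays, and the MDA-MB-231 ones below the SKOV3 ones. ITGA5 fell by 1.71 ± 0.19 in MDA-MB-231 (adjusted p = 0.000257), or 3.27-fold, and by 1.01 ± 0.21 in SKOV3 (adjusted p = 0.0124), or 2.01-fold. The baseline difference was -0.030 ± 0.21 (adjusted p = 0.973), and after the mimic MDA-MB-231 stood 0.73 below SKOV3 (adjusted p = 0.0258). The SKOV3 call was lost without SKOV3 control array 1 (-0.95, adjusted p = 0.0943), without SKOV3 control array 2 (-1.06, adjusted p = 0.0738), and when the 2 SKOV3 groups were fitted alone (adjusted p = 0.103).

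ITGAV encodes alphaV, the alpha subunit shared by several receptors for vitronectin and latent TGF-beta. It gave 9.22, 9.40 and 9.004 in MDA-MB-231 control arrays and 8.12, 7.86 and 7.84 with the mimic. In SKOV3 the control arrays gave 9.99 and 10.06 and the treated ones 8.84, 9.72 and 9.58. Treated arrays lay below control arrays in both lines, and SKOV3 control arrays were the highest of all. The change was -1.27 ± 0.21 in MDA-MB-231 (adjusted p = 0.00235) and -0.64 ± 0.24 in SKOV3 (adjusted p = 0.122), which was not called. The baseline level was lower in MDA-MB-231 than in SKOV3 by a narrow call, -0.81 ± 0.24 (adjusted p = 0.0496). This call was lost when any array other than SKOV3 miR-365a-3p arrays 1 and 2 was left out, with adjusted p up to 0.239 without SKOV3 control array 2. It was also lost with deposited values (adjusted p = 0.0650), median centring (adjusted p = 0.0712) and cyclic loess (adjusted p = 0.0749). In the order of levels, SKOV3 miR-365a-3p and MDA-MB-231 control arrays were neighbours that did not differ beyond their spread (-0.17, adjusted p = 0.691).

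ITGB5 encodes beta5, which pairs with alphaV. Control arrays gave 9.56, 9.36 and 9.53 in MDA-MB-231 and 10.30 and 10.22 in SKOV3. Arrays with miR-365a-3p gave 8.06, 8.52 and 8.76 in MDA-MB-231 and 8.81, 9.93 and 9.66 in SKOV3. Again the treated arrays of a line were all below its control arrays. ITGB5 changed by -1.04 ± 0.27 in MDA-MB-231 (adjusted p = 0.0212) and by -0.79 ± 0.31 in SKOV3 (adjusted p = 0.140), where the call was not reached. In MDA-MB-231 the call was lost without miR-365a-3p array 1 (-0.85, adjusted p = 0.0773), without miR-365a-3p array 2 (-1.07, adjusted p = 0.0518), without control array 1 (-1.001, adjusted p = 0.0633) and without control array 3 (-1.02, adjusted p = 0.0651). The baseline difference between lines was -0.78 ± 0.31 (adjusted p = 0.149), and was called without SKOV3 miR-365a-3p array 1 (adjusted p = 0.0226), without both arrays numbered 1 (adjusted p = 0.00247) and when the control groups were fitted alone (adjusted p = 0.00330). In the order of levels MDA-MB-231 control and SKOV3 miR-365a-3p arrays were neighbours that did not differ beyond their spread (0.015, adjusted p = 0.982).

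ITGB3 and ITGB8 encode the other partners of alphaV in this set. ITGB3 gave 7.30 to 7.34 in 5 of the 6 MDA-MB-231 arrays and 7.39 in the sixth, and 7.36 to 7.42 in SKOV3. ITGB8 lay between 7.23 and 7.40 on all 11 arrays. Both genes were at the floor in every group, so a fall of either could not have been seen. ITGB8 was formally called lower in MDA-MB-231 than in SKOV3 control arrays, -0.11 ± 0.031 (adjusted p = 0.0434), a difference within the floor band. This call was lost when any array other than MDA-MB-231 miR-365a-3p array 1, MDA-MB-231 control array 2 and SKOV3 miR-365a-3p array 2 was left out, with adjusted p up to 0.309 without SKOV3 control array 1.

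ITGB1 encodes beta1, the common partner of alpha2, alpha3, alpha5, alpha6 and alphaV. Its control arrays gave 11.84, 11.22 and 11.45 in MDA-MB-231 and 11.13 and 11.14 in SKOV3. With the mimic the values were 10.06, 10.88 and 11.39 in MDA-MB-231 and 10.49, 11.48 and 11.23 in SKOV3. The groups overlapped in both lines, and the treated arrays spread over more than 1 log2 unit in MDA-MB-231 and nearly 1 in SKOV3. The changes were -0.72 ± 0.36 in MDA-MB-231 (adjusted p = 0.202) and -0.067 ± 0.40 in SKOV3 (adjusted p = 0.968), and the control arrays of the lines differed by 0.37 ± 0.40 (adjusted p = 0.720). No pair of the 4 groups differed beyond the spread for ITGB1. Its standard errors were the largest of the 10 members in both lines, so a change of the size seen in ITGB1 was not detectable with these arrays.

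Between the control arrays of the lines, in the fit of all arrays, ITGA2 and ITGA6 were called higher in MDA-MB-231. ITGAV, ITGB4 and ITGB8 were called lower there, with ITGB8 at the floor. Over all rows 7.76% were called higher, 8.34% lower and 16.1% in either direction in this comparison. When the control groups were fitted alone, ITGB8 was not called (adjusted p = 0.121) and ITGB5 was called lower (-0.78, adjusted p = 0.00330). For the 8 members with both control means above the floor band, ITGA2 was the one whose lines differed by more than 1 log2 unit. The response to the mimic differed between the lines (change in MDA-MB-231 minus change in SKOV3) for ITGA2, -2.52 ± 0.11 (adjusted p = 3.19e-05), and for ITGA6, -1.30 ± 0.20 (adjusted p = 0.0124), where 1.3% of all rows were called lower, 1.24% higher and 2.54% in either direction. Both genes started from a lower level in SKOV3, and ITGA2 from close to the floor, so the SKOV3 arrays could show at most a small fall of ITGA2. The ITGA6 call was lost without SKOV3 control array 1 (-1.25, adjusted p = 0.0768), without SKOV3 control array 2 (-1.36, adjusted p = 0.0578), and with the replicate number as a block (-1.29, adjusted p = 0.0518). For the other 8 members the difference was not called. It was -1.02 ± 0.47 for ITGA3, -0.70 ± 0.28 for ITGA5 and -0.62 ± 0.32 for ITGAV, and these 3 were called without SKOV3 miR-365a-3p array 1 (-1.41, -0.94 and -0.89, adjusted p = 0.0301, 0.0211 and 0.0353).

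**Figure D2:**
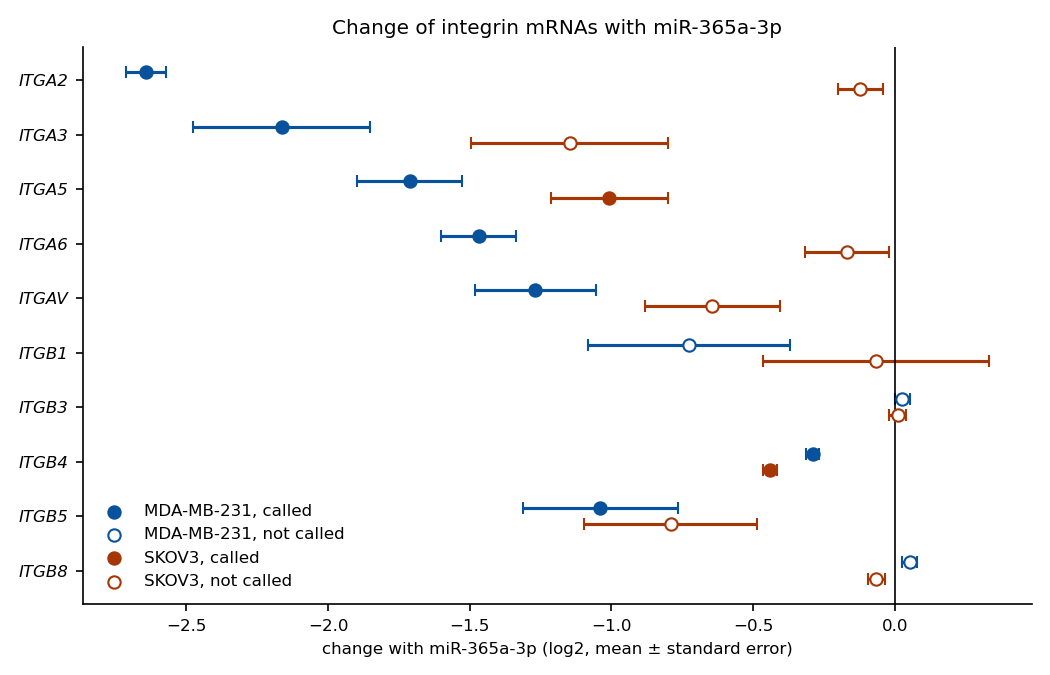
Change of each integrin mRNA with miR-365a-3p (log2, mean and standard error from limma) in MDA-MB-231 (blue, upper point) and SKOV3 (brown, lower point); filled points were called at an adjusted p under 0.05. Among the filled MDA-MB-231 points ITGA2 has the largest fall, -2.64, and in SKOV3 only ITGA5 and ITGB4 are filled.

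A test that borrows no spread from other genes permuted the treatment within each cell line over all 200 arrangements. The mean of the changes in the 2 lines gave an exact two-sided p of 0.005 for ITGA5 (-1.36) and ITGB4 (-0.37), the smallest this design can give. It gave 0.01 for ITGA2 (-1.38), ITGA3 (-1.66), ITGAV (-0.96) and ITGB5 (-0.92), and 0.025 for ITGA6 (-0.82). For ITGB1 (-0.40) the exact p was 0.235, for ITGB3 0.29 and for ITGB8 0.835. These 10 values are unadjusted. Counted by arrays, every miR-365a-3p array lay below every control array for 7 of the 10 members in MDA-MB-231, where 17% of all rows did, and for 7 in SKOV3, where 18.2% did. The 7 in MDA-MB-231 were those called lower there, and in SKOV3 they were ITGA2, ITGA3, ITGA5, ITGAV, ITGB4, ITGB5 and ITGB8, of which ITGA2 and ITGB8 moved by 0.12 or less.

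The treated arrays of a group differed from each other. The miR-365a-3p array numbered 1 was the lowest of its group for 9 of the 10 members in MDA-MB-231 and for 8 in SKOV3, and for 7 members in both. In SKOV3 this array set much of the spread, for example 7.86 against 8.69 and 8.43 for ITGA5 and 8.81 against 9.93 and 9.66 for ITGB5. Without both arrays numbered 1, the SKOV3 changes of ITGA3 and ITGB5 were smaller, -0.75 and -0.46, and were called (adjusted p = 0.0125 and 0.0463), so that 4 of the 10 were called lower in SKOV3. In the same fit the response differed between lines for 5 members. The shares of all rows called in that fit were not counted, so these counts are not read as a result about the integrin genes.

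A further quantity moved with the treatment. The median signal of 217 mRNAs of small proteins such as ribosomal proteins minus that of 21 mRNAs of large proteins such as myosins and dyneins, all with a mean above 8, was 1.06 ± 0.23 (log2, SD, n = 3) in MDA-MB-231 control and 2.83 ± 0.12 (n = 3) in miR-365a-3p arrays. In SKOV3 it was 1.70 ± 0.12 (n = 2) in control and 2.67 ± 0.36 (n = 3) in miR-365a-3p arrays. The balance was thus higher in every treated array than in every control array. Of the treated SKOV3 arrays, the one numbered 1 had the highest balance, 3.07, and the lowest signal for ITGA3, ITGA5, ITGAV and ITGB5. Of the treated MDA-MB-231 arrays, the one numbered 1 also had the highest balance, 2.96, and the lowest signal for ITGA3, ITGA5 and ITGB5. For ITGAV, however, its signal was the highest of these arrays, 8.12. With the balance as a covariate, 1 member was called lower in MDA-MB-231, ITGA2, and 1 in SKOV3, ITGB4. The MDA-MB-231 change of ITGB4 was as large with the covariate as without it, -0.32, but was not called (adjusted p = 0.343), and those of ITGA6, ITGAV and ITGA5 were smaller, -0.62, -0.34 and -0.074 (adjusted p = 0.672, 0.931 and 0.972). ITGA3 and ITGB5 changed sign in that fit and were not called, with 0.28 and 1.24. ITGA5 in SKOV3 changed by -0.11 (adjusted p = 0.896). The covariate is tied to the treatment, and it raised the standard errors of the MDA-MB-231 changes of the members 1.66-fold to 3.74-fold. In SKOV3 the standard errors were 0.913-fold to 2.05-fold those without it. The part of this balance in the changes of the integrin mRNAs was not tested beyond that fit.

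**Figure D3:**
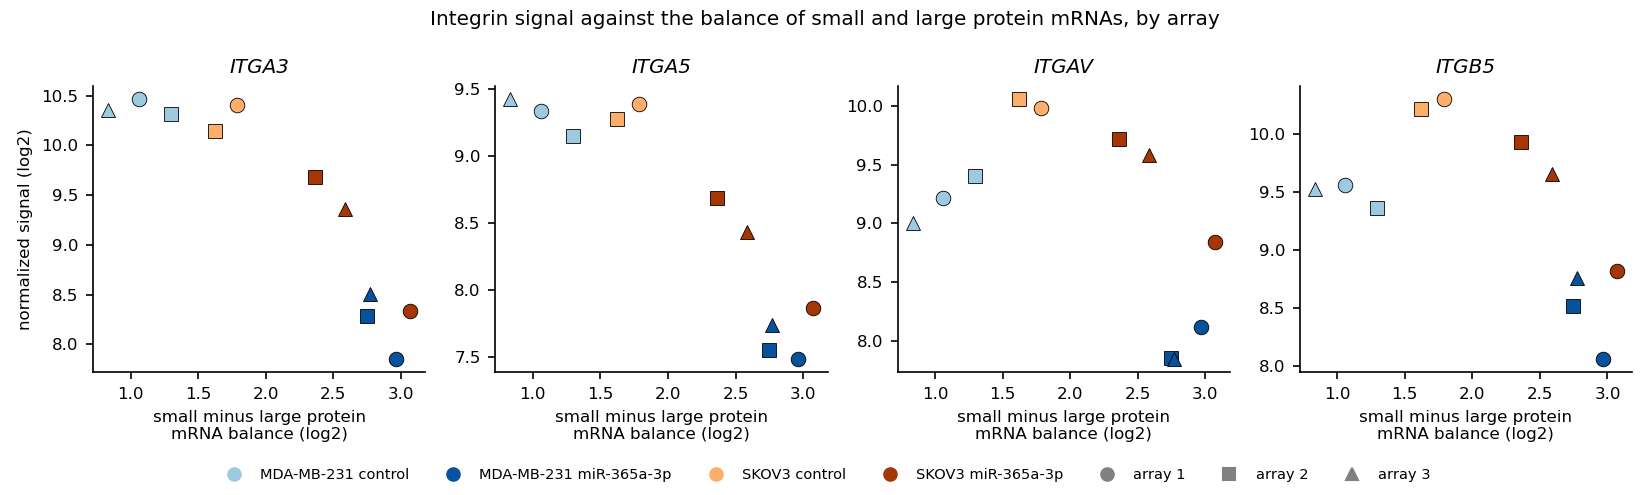
Normalized signal (log2, vertical axes, each with its own range) of ITGA3, ITGA5, ITGAV and ITGB5 against the balance of small and large protein mRNAs (log2, horizontal axes) on the 11 arrays; colours give the group and symbols the array number. Treated arrays have balances from 2.36 to 3.07 and control arrays from 0.83 to 1.79, and the treated arrays of each line have the lower signals of that line.

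Promoter sequence could be read for some of the members. RefSeq windows of the 100 bases before the transcript start were found for 7 of the 10 genes, 12 windows in all. ITGA2 and ITGA5 are shown, since the first had the largest change and the second a call in both lines. They are printed 5′ to 3′ on the strand of the gene, at chr5:52989252-52989351 (plus strand) and chr12:54419267-54419366 (minus strand) of GRCh38.p14. Capitals mark GC boxes (GGGCGG or its reverse complement CCGCCC) in ITGA2 and a TEAD motif (GGAATG or CATTCC) in ITGA5.
ITGA2: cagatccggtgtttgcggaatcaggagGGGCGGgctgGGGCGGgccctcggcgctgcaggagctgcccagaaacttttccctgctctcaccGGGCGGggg
ITGA5: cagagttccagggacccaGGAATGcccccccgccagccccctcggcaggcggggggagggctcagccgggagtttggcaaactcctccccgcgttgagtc
A GC box stood in 6 of the 12 windows, from 5 of the 7 genes, and in 31.3% of all 35116 promoter windows of this length. The TEAD motif was in 1 of the 12 and in 4.67% of all windows, the TATA motif (TATAAA or TTTATA) in 2 of the 12 and in 4.99% of all, and the AP-1 motif (TGANTCA) in none of the 12 and in 2.75% of all. These matches describe the letters of the windows and not sites in use.

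The other genes of the integrin pathway were read from 9 lists with 102 genes, all of them measured. In MDA-MB-231, 43 of the 102 (42.2%) were called lower and 12 higher. In SKOV3, 29 (28.4%) were lower and 6 higher, and 25 were lower and 4 higher in both lines, where 5.39% and 5.76% of all rows were. Shares of a list called lower are read beside 11.7% of all rows and 26.2% of those with a mean above 8 in MDA-MB-231, and 7.11% and 15.3% in SKOV3. In 17 genes all 4 group means were at the floor. The median change of the 102 was -0.12 in MDA-MB-231 and -0.063 in SKOV3. The counts in both lines depended on the SKOV3 control arrays, with 14 lower and 2 higher without array 1, and 10 lower and 1 higher without array 2. Deposited values without further normalization gave 34 lower and 1 higher, median centring gave 31 and 1, and the covariate above gave 1 and 0.

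Of 25 genes for integrin ligands in the matrix, 11 (44%) were lower in each line and 8 in both, with 1 higher in each. By the mean over the lines, laminin chains fell furthest. LAMC1, the gamma1 chain of many laminins, went from 11.12 ± 0.074 to 8.07 ± 0.12 in MDA-MB-231 (SD, n = 3). In SKOV3 it went from 12.24 ± 0.15 (SD, n = 2) to 9.94 ± 1.14 (SD, n = 3), with a wide spread among the treated arrays. The change was -3.05 ± 0.46 (SE) in MDA-MB-231 (adjusted p = 0.00134) and -2.30 ± 0.51 in SKOV3 (adjusted p = 0.0175). LAMA5, the alpha5 laminin chain, changed by -2.24 ± 0.14 in MDA-MB-231 and -3.01 ± 0.15 in SKOV3 (adjusted p = 1.61e-05 and 1.16e-05). CCN2, a matricellular protein listed under its older symbol CTGF, fell from 12.86 to 9.64 in MDA-MB-231 and from 8.43 to 7.74 in SKOV3 (adjusted p = 3.45e-06 and 0.0179). The ligand gene called higher in SKOV3 was SPP1, osteopontin, which binds alphaV integrins and rose by 1.06 there. The genes of fibronectin and vitronectin, FN1 and VTN, were at the floor in all groups, and the call of FN1 as higher in MDA-MB-231 was a difference of 0.092 within the floor band.

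Among subunits outside the 10, 13 alpha genes included 8 at the floor in all groups and none that was called lower. ITGAE, the alpha partner of beta7 on lymphocytes of epithelia, rose by 0.57 ± 0.18 in MDA-MB-231 (adjusted p = 0.0430) and 0.78 ± 0.20 in SKOV3 (adjusted p = 0.0313). ITGA4 was also called higher in MDA-MB-231, by 0.18. Of the 3 other beta genes, ITGB2 was lower (-0.33) and ITGB7 higher (0.22) in MDA-MB-231, and none was called in SKOV3. Genes of the lists that were called in a single line, such as these, are named here after their values were seen, and a call in 1 line is no test of a difference between the lines.

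Of 13 genes for proteins that switch integrins on or off, 4 (30.8%) were lower and 3 higher in MDA-MB-231, 4 lower and 1 higher in SKOV3, and 3 lower and 1 higher in both. The MDA-MB-231 share was near that of all rows with a mean above 8. TLN1, talin, which binds the tails of beta subunits, changed by -1.57 ± 0.10 in MDA-MB-231 and -1.75 ± 0.11 in SKOV3 (adjusted p = 2.14e-05 and 4.40e-05). KANK2, a talin-binding protein, changed by -0.63 and -0.90, and TLN2, the second talin, by -0.22 and -0.15. TLN2 started close to the floor and ended in the floor band in both lines, so the values give no size for its fall. RAP1B, a small GTPase that acts upstream of talin, rose by 0.29 and 0.37. ITGB1BP1, an inhibitor that competes with talin for the beta1 tail, was called higher in MDA-MB-231 (0.73) and not in SKOV3 (0.60, adjusted p = 0.0666), and so was RAP1A (0.37, and 0.28 with adjusted p = 0.0702). FLNA, filamin A, was called lower in SKOV3 (-0.82) and not in MDA-MB-231 (-0.33, adjusted p = 0.0613). The difference between the lines was not called for these 3 genes (adjusted p = 0.907, 0.842 and 0.242). APBB1IP was called lower in MDA-MB-231 (-0.35) and had 0.19 in SKOV3 (adjusted p = 0.0980).

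The adhesion plaque, the layer that joins integrin tails to actin, had 9 of 15 genes (60%) lower and 1 higher in MDA-MB-231, and 7 (46.7%) lower and 2 higher in SKOV3, with 7 lower in both. ACTN1, the actin crosslinker alpha-actinin, changed by -2.78 ± 0.25 in MDA-MB-231 and -1.81 ± 0.28 in SKOV3 (adjusted p = 0.000106 and 0.00330). ZYX, zyxin, changed by -1.86 and -1.68, and TNS3, tensin 3, by -1.80 and -1.52. TES, testin, was the gene called higher in both, by 0.28 and 0.32, and PARVB was called higher in SKOV3 (0.14). VCL, vinculin, was called lower in MDA-MB-231 (-1.36).

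Adhesion signalling had 8 of 12 genes (66.7%) lower in MDA-MB-231, 4 (33.3%) in SKOV3 and the same number in both, and none higher. CRKL, an adaptor that binds phosphorylated BCAR1, changed by -1.91 and -1.37, BCAR1 itself, the scaffold p130Cas, by -0.77 and -0.40, and the kinase PAK1 by -0.50 and -0.35. PTK2, focal adhesion kinase, was called lower in MDA-MB-231 (-1.30). Of 7 membrane partners of integrins, 4 (57.1%) were lower in MDA-MB-231 and 2 (28.6%) in SKOV3 and in both. Those called in both were CD81, a tetraspanin, with -2.72 ± 0.29 and -1.58 ± 0.33 (adjusted p = 0.000251 and 0.0127), and CD47, a partner of alphaV integrins, with -0.72 and -1.07. Of 4 hemidesmosome partners of alpha6beta4, PLEC, DST and COL17A1 were lower in MDA-MB-231 (-0.24, -0.095 and -0.34) and none was called in SKOV3. DST was at the floor in all groups, so its difference lay within the floor band. Endocytosis and recycling of integrins had 3 of 10 genes (30%) lower and 4 higher in MDA-MB-231, and 1 each way in SKOV3. Of the small GTPases in this list, ARF6 (0.56), RAB4A (0.79) and RAB21 (0.39) were called higher and RAB5A lower (-0.62) in MDA-MB-231, and RAB11A was not called (-0.12). SNX17, a sorting nexin that returns beta1 to the cell surface, rose by 0.62 and 0.55, and GGA3, a sorting adaptor, changed by -0.17 and -0.14. GGA3 also started close to the floor and ended in the floor band in both lines.

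**Figure D4:**
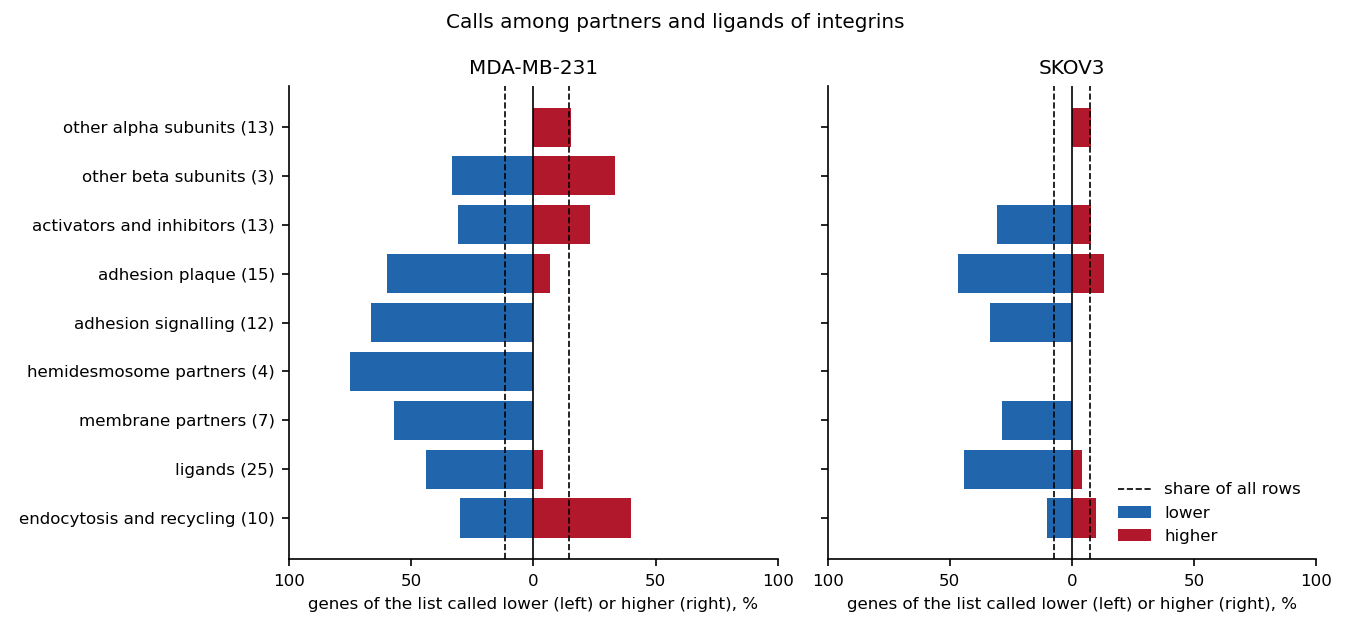
Share of the genes of each list (number of genes in brackets) that was called lower (blue, to the left) or higher (red, to the right) with miR-365a-3p, in percent, in MDA-MB-231 and SKOV3; dashed lines give the shares over all rows. In MDA-MB-231 the adhesion plaque reached 60% lower and adhesion signalling 66.7%, and in SKOV3 the plaque reached 46.7% and the ligands 44.0%.

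**Figure D5:**
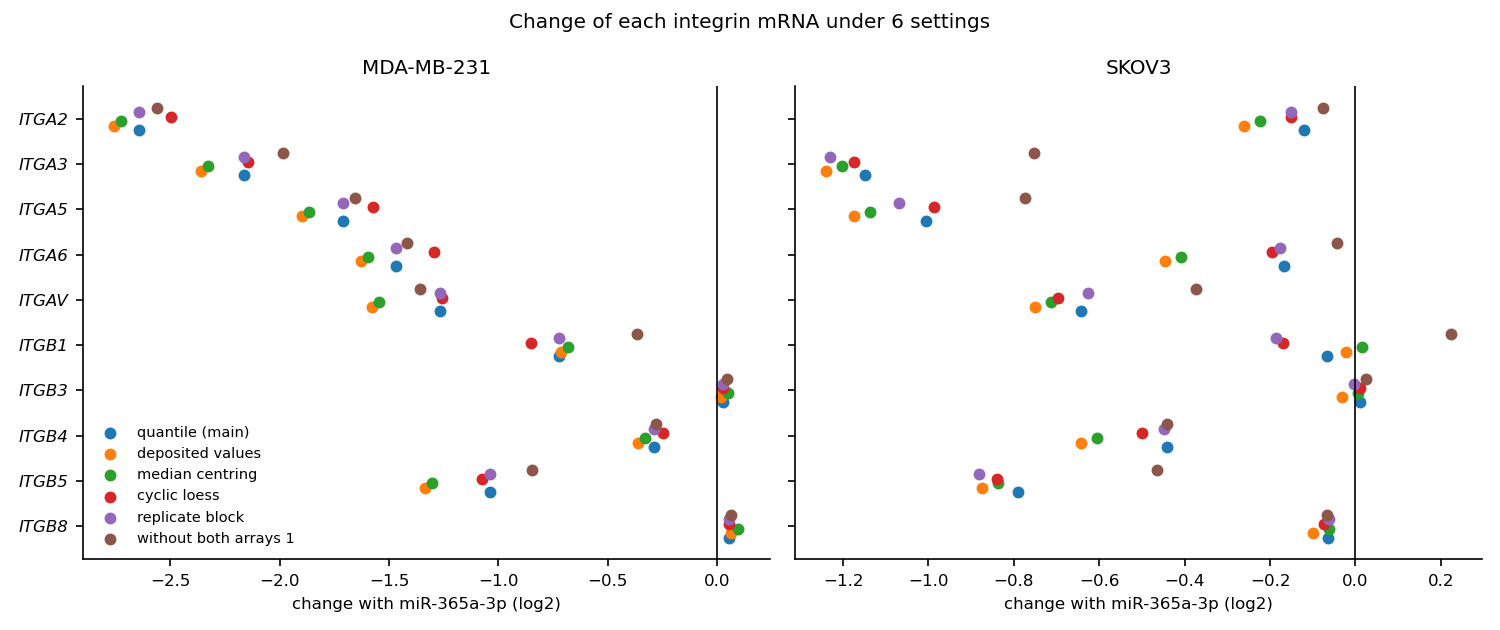
Change of each integrin mRNA with miR-365a-3p (log2, each panel with its own horizontal range) under 6 settings of normalization, block and arrays. For the members that were called, all points of a line lie on the same side of 0, and ITGB1 in SKOV3 lies on either side.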

How the data were processed

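RNA was extracted with Trizol and a miRVana kit, amplified to biotin-labelled cRNA and hybridized to Illumina HumanHT-12 v4 BeadChips in 1 colour. Per the methods, the authors normalized the data by quantiles with lumi. They deposited 1 value, read here as log2, for each of 31325 gene symbols and each of the 11 arrays. The genome build, the handling of background and of several probes per gene, and whether log2 or a variance-stabilizing transformation was used are not given in the sources used here. The table gives symbols without coordinates and without detection calls.

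The deposited columns did not share a distribution, so quantile normalization was applied to all 11 of them (R 4.3.3, limma 3.58.1). Means of the 4 groups were fitted to every row (lmFit, eBayes), the Benjamini-Hochberg adjustment ran over all rows, and a row was called at an adjusted p under 0.05. Samples were grouped by the cell line and treatment in their labels, and no array was left out of the main values. The fit was tested on simulated data. Number of arrays limits the precision, and no 2 arrays held identical values. Correlations of deviations from the group means over 6853 genes were -0.12, 0.042 and 0.23 between miR-365a-3p and control arrays of the same number in MDA-MB-231, and 0.039 and -0.073 in SKOV3, so the numbers were not taken to pair treated with control arrays. Between the lines, miR-365a-3p arrays of the same number had 0.70, 0.31 and 0.34, and the replicate block is given beside the difference between lines where it changes a call.

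The members, the lists of other integrin genes and the tests were chosen with earlier results of these data known. From each list, a rule took the genes called in both lines with the same sign. It named up to 3 with the largest mean fall and up to 3 with the largest mean rise. Other genes of the lists, such as those called in a single line, were named after their values were seen. The lists were other alpha subunits, other beta subunits, activators and inhibitors, adhesion plaque, adhesion signalling, hemidesmosome partners, membrane partners, ligands, and endocytosis and recycling, and 3 of their genes were found under an older symbol. Alternatives were the deposited values, median centring, cyclic loess, a filter on low values, an intensity trend with robust hyperparameters, a replicate block, the groups of a comparison alone, an adjusted p under 0.01 and each array left out. Leaving out both miR-365a-3p arrays numbered 1 and the covariate for small and large protein mRNAs were added after the data were seen. Sequences are from RefSeq (GRCh38.p14). 1 marker gene and the genes most like ITGA5 are not reported here.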

Additional observations from a re-analysis of the deposited data

Results flagged for a closer look

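The change with miR-365a-3p differed between the cell lines, by the limma contrast of the changes, for 2 of the 10 integrin genes. The difference, change in MDA-MB-231 minus change in SKOV3 on the log2 scale, was -2.52 for ITGA2 (adjusted p = 3.19e-05) and -1.30 for ITGA6 (adjusted p = 0.0124).

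Of the 102 other genes of the integrin pathway, 13 (12.7%) differed in this way, beside 2.54% of all rows. Among ligands the difference was -2.52 for CCN2, -1.29 for TNC, -1.16 for THBS1 and -1.12 for CCN1. All 4 were called lower in MDA-MB-231, and in SKOV3 TNC (-0.14) and CCN1 (-0.29) were not called. The difference was 1.01 for COL1A1 and 0.32 for COL1A2, the chains of type I collagen. They changed by -1.11 and -0.31 in SKOV3 and by -0.098 and 0.0035 in MDA-MB-231. In MDA-MB-231 COL1A2 was at the floor in both groups. COL1A1 there had 7.46 in control arrays, just above the floor band, and 7.36 with the mimic, so little of a fall could have been seen. In the adhesion plaque, PXN had a difference of -0.70 and TGFB1I1, which encodes the paxillin relative Hic-5, of 0.49, and both genes fell in both lines. BCAR1 had -0.38 and DAB2, an endocytic adaptor, -0.63. For ITGB2 (-0.48), APBB1IP (-0.54) and COL17A1 (-0.62) the change was called lower in MDA-MB-231 and was above 0 but not called in SKOV3, at 0.15, 0.19 and 0.28. Baseline levels of these genes differed between the lines in several cases, such as 12.86 against 8.43 for CCN2 and 9.06 against 7.71 for TNC, and the part of the baseline in the difference was not tested.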

How the results depend on the processing

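Of the 10 integrin genes, the count called lower in MDA-MB-231 was 7 and ranged from 6 to 7 over leaving out each array, and it was 1 with the small and large protein balance as a covariate. In that fit ITGA3 and ITGB5 changed sign, to 0.28 (adjusted p = 0.948) and 1.24 (adjusted p = 0.532), ITGB4 kept its size in MDA-MB-231 (-0.32), 1 gene was lower in SKOV3, 1 higher at baseline, 1 had a lower difference between lines, and 1 pathway gene was lower and 0 higher in both lines. It raised the median standard error of all rows 3.53-fold in MDA-MB-231, and the cause of the lost calls was not tested. The count lower in SKOV3 (2) ranged from 1 to 3 over leave-outs, was 1 when its groups were fitted alone or at an adjusted p under 0.01, and was 4 without both arrays numbered 1. The count lower at baseline (3) ranged from 1 to 3 over leave-outs and was 1 under the 0.01 threshold. The count with a lower difference between lines (2) ranged from 1 to 5, was 1 at 0.01 and 5 without both arrays numbered 1. A higher difference, 0 in the main values, was 1 (ITGB4) for deposited values (0.28, adjusted p = 0.0266), median centring (adjusted p = 0.0177) and cyclic loess (adjusted p = 0.00861). Of the other pathway genes, 25 were lower in both lines (leave-outs 10 to 26, 12 at 0.01) and 4 higher (leave-outs 1 to 5, 2 at 0.01, 1 for deposited values, 1 for median centring, 2 for cyclic loess, 7 with the filter on low values). For the replicate block, the counts were 7 in MDA-MB-231 and 2 in SKOV3, and 24 and 6 pathway genes were lower and higher in both lines. With the block 1 gene was lower at baseline, where ITGAV (-0.80, adjusted p = 0.0955) and ITGB8 (-0.11, adjusted p = 0.0964) lost their calls, and 1 gene had a lower difference between lines, where ITGA6 lost its call. The block changed no other call of the 10 genes. Shares of all rows were counted for the main fit only, so the counts under other settings have no such share beside them.

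ITGA3 in SKOV3 was called with the filter on low values (adjusted p = 0.0313) and with the intensity trend (adjusted p = 0.0132). No setting but the covariate turned the direction of a called change. Signals near the floor limit what could be seen for ITGB3, ITGB8, ITGB4, and for ITGA2 in SKOV3. With miR-365a-3p, the MDA-MB-231 means of ITGA6 (7.48), ITGA5 (7.59) and ITGA2 (7.64) also lay close to the floor. This limits the size of the fall that could be seen for these genes there. A group of 2 SKOV3 control arrays makes every SKOV3 comparison depend on each of them.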

Other observations

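Over the 11 arrays, and among the 15654 rows with the higher mean signals (above the median row), the gene whose pattern was most like ITGA2 was MARCH4 (Pearson r = 0.997), followed by LEF1 and ZNF467 (both 0.996). For ITGA3 they were MYO5C, BBX and SEC61A1 (0.996, 0.994 and 0.992), and for ITGA6 OPA1, ZNF503 and C10orf119 (0.995, 0.990 and 0.989). For ITGAV they were CD276, MAN1A2 and CST3 (0.968, 0.968 and 0.967), for ITGB1 FAM62B, ARL1 and LOC402116 (0.980, 0.965 and 0.963), for ITGB4 ZCCHC24, EHD2 and ZNF618 (all 0.992), and for ITGB5 STX16, MKRN1 and ESYT1 (all 0.990). The lists of ITGB3 and ITGB8 compare values at the floor and are not given. These correlations describe 11 arrays in 4 groups, which share the treatment and the balance of small and large protein mRNAs, and carry no test.

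Among the members, the pair with the closest pattern was ITGA3 and ITGA5 (r = 0.989), while ITGA2 and ITGAV had r = 0.078 over the same arrays.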
